A study of Mus musculus with 81 samples.

Results

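The MuRRS, MURVY and MuLV-like elements are murine endogenous retroviruses of the ERV1 class. They were taken here as every annotated locus whose species name begins with MuRRS, MURVY or MuLV, or with RLTR4 or RLTR5 where no further digit follows. This rule used names only and no measured value. It gave 7766 of the 970384 LTR loci in the deposited tables, in 8 species: MuRRS4-int with 2700 loci, MURVY-LTR with 1893, MuRRS-int with 986, RLTR5_Mm with 593, MURVY-int with 534, RLTR4_MM-int with 432, MuLV-int with 389 and RLTR4_Mm with 239. RepeatMasker assigns all 7766 to the ERV1 family of the LTR class. A name ending in -int marks the internal, protein-coding part of a retrovirus, and the other names mark the long terminal repeats (LTRs) that flank it.

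OG2 mice carry EGFP under the Pou5f1 promoter and distal enhancer on a C57BL/6 background, so that fetal germline cells fluoresce. F0 dams drank water with 50 nM tributyltin (TBT), an organotin endocrine disruptor, or with the vehicle DMSO alone, and fetal testes of F1 and F3 males were dissociated at E18.5. FACS gave 3 populations: EGFP-positive germline cells P4 and P5, which differ in side scatter, and EGFP-negative somatic cells P6, a mixture of all other testicular cell types. All groups share the transgene and the vehicle, and only F0 dams received TBT. Poly(A) RNA was sequenced in 62 libraries. F1 P4 held 5 DMSO and 7 TBT libraries, F1 P5 held 4 and 7, F1 P6 held 5 and 7, and each F3 population held 4 and 5. Methylated DNA of P6 cells (MBD-seq) was sequenced in 3 DMSO and 4 TBT libraries of F1 and in 5 and 7 of F3. The labels do not tell whether the libraries of a group came from separate litters, so p-values measure the spread between these libraries.

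Retroviruses of this kind were once infectious and entered the mouse germline as proviruses, an internal part with gag, pol and env genes between a pair of LTRs. The 5′ LTR holds the promoter, the 3′ LTR the polyadenylation signal, and reverse transcription starts where a host tRNA pairs with the primer binding site just inside the 5′ LTR. MuLVs are the murine leukemia viruses and their endogenous relatives, of which some can still form particles. MURVY is a repeated retrovirus family known for its amplification on the mouse Y chromosome, and MuRRS elements are defective sequences related to murine leukemia viruses. In fetal male germ cells DNA methylation is erased and then laid down again, and germ cells use histone marks and piRNAs to restrain such elements.

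The genome sequence (RefSeq, GRCm38) showed how these species belong together. Among LTR loci lying directly beside an MURVY-int locus, 498 of 542 (91.9%) were RLTR5_Mm, so RLTR5_Mm was the LTR of MURVY here, although its name places it beside RLTR4_Mm. RLTR4_Mm lay at 126 of the 181 LTR ends of RLTR4_MM-int and at 29 of the 70 of MuLV-int. MuRRS-int was flanked mainly by LTRIS_Mus (193 of 492 LTR ends), LTRIS_Mm (124) and MTC (111). MURVY-LTR lay most often beside RMER15 (283 ends), RLTR6-int (175) and MuRRS4-int (163). The junction of the 5′ LTR and the internal part is shown for 5 loci because it carries the primer binding site, given in capitals, which in these 5 matches either the proline tRNA (TGGGGGCTC) or a variant of the glutamine site (TGGAGGTCC). All are printed 5′ to 3′ along the provirus.
MuRRS-int, Sec24b intron, chr3:130044173-130044212, + strand: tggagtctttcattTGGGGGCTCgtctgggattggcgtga
MuLV-int, chr5:23708683-23708722, − strand: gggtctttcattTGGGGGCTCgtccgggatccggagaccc
RLTR4_MM-int, chr4:133096432-133096471, + strand: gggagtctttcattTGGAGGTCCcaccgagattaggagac
RLTR4_MM-int, chr8:90886766-90886805, + strand: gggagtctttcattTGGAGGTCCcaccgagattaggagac
RLTR4_MM-int, chr14:54297314-54297353, − strand: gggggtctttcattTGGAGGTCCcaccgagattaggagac
The proline site began 27 MuRRS-int loci flanked by LTRIS_Mus, 48 flanked by LTRIS_Mm and 8 MuLV-int loci flanked by RLTR4_Mm. The glutamine variant began 30 RLTR4_MM-int loci flanked by RLTR4_Mm. The species did not divide cleanly by this site: beside RLTR4_Mm the variant also began 2 MuLV-int loci, and the glutamine site itself (TGGAGGCCC) began 1 MuLV-int and 2 RLTR4_MM-int loci.

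A locus that lies outside genes is shown for MuRRS-int and for MURVY-int, since those are the ones on which later results rest. The first is the 5′ end of the MuRRS-int locus with the highest mean level, and the second the start of the only locus of the set that limma called for TBT in F1 P5 cells.
MuRRS-int, chr5:104933896-104934095, − strand: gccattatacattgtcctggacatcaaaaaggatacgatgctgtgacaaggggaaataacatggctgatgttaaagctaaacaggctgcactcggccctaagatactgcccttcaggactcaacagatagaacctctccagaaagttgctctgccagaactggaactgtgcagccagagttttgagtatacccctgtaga
MURVY-int, chr11:54035346-54035465, + strand: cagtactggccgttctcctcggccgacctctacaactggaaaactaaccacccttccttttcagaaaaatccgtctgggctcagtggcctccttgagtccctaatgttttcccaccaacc
For the LTR species the locus with the highest mean level is shown, with the polyadenylation signal AATAAA in capitals where it occurs (TTTATT where it lies on the other strand).
MURVY-LTR, Ndufaf2 intron, chr13:108093419-108093718, + strand: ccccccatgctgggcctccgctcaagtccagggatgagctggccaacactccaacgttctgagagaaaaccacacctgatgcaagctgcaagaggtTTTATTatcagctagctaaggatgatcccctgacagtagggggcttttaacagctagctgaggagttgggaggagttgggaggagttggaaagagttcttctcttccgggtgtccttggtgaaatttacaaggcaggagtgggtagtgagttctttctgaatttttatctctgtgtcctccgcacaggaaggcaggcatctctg
RLTR4_Mm, Snx6, chr12:54782509-54782808, + strand: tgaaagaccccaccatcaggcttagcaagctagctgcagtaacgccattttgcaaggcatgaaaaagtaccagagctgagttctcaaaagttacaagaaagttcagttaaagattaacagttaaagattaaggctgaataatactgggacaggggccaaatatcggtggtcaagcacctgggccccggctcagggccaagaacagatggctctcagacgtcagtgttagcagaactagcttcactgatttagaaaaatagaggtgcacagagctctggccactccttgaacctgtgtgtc
RLTR5_Mm, Phb2, chr6:124713607-124713678, + strand: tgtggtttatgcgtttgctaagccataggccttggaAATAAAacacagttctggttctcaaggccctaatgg
Over the 300 bases at the lower-coordinate end of each locus of at least that length, whichever way the element runs, and on both strands, AATAAA was held by 51.2% of MURVY-LTR loci and 2.27% of RLTR5_Mm loci, beside 19.6% of 32851 promoters of the same length. The TATA box sequence TATAAA was held by 65.97% of RLTR5_Mm loci, 6.64% of MURVY-LTR loci and 13.6% of promoters. CCAAT was held by 69.0% of MURVY-LTR loci, 40.8% of RLTR5_Mm loci and 37.4% of promoters. The species differed as widely in CpG sites, the targets of DNA methylation, from 33.5 per kb in RLTR4_Mm and 28.7 in RLTR4_MM-int to 13.4 in MURVY-int, 11.8 in MuRRS-int and 7.40 in MuRRS4-int.

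Of the 7766 loci, 4513 (58.1%) lie on the Y chromosome, from 84.3% of RLTR5_Mm and 75.5% of MURVY-int loci to 10.04% of RLTR4_Mm and 1.39% of RLTR4_MM-int loci. By GENCODE, 6436 loci (82.9%) lie outside genes, 944 in introns and 386 in exons. At least 1 read was counted at 4737 loci in any of the 62 libraries, and 3029 had none. The Y chromosome nevertheless held 1.75% of the summed signal of the 8 species in F1 P4, 5.25% in F1 P5, 3.09% in F1 P6, and 2.58%, 6.14% and 1.94% in the same populations of F3. The repeated loci on Y are near copies of each other, and how the counting treated reads with several matching places is not given in the sources used here, so a low count there does not separate silent loci from reads that were not assigned.

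Levels are in CPM, read counts relative to the scaled library size, and the somatic and germline tables of each generation were scaled separately, so levels are set side by side across them with no test. The F1 libraries held 2824806 to 6304053 reads at LTR loci, and the F3 libraries 246520 to 8161548. The share of reads at LTR loci outside genes was 1.83 to 2.51% in F1 P4, 3.84 to 7.34% in F1 P5 and 0.999 to 6.95% in F1 P6. In F3 it was 2.05 to 12.1% in P4, 6.06 to 31.1% in P5 and 1.19 to 1.52% in P6. Among F1 P6 cells, TBT libraries 7 and 8 stood apart at 6.79 and 6.95%, above the highest of 1.82% in the other 10. Among F3 germline cells the libraries of P4 TBT 5 and 9 and of P5 DMSO 1 and 2 and TBT 5 stood apart in depth or in this share, and in F3 P6 DMSO libraries 3 and 4 stood apart in germline markers. For several of the results that these 9 libraries enter, the value without them is given as well, and other values are over all libraries. Without them the DMSO libraries left were 3 and 4 in F3 P5 and 1 and 2 in F3 P6. LTR loci in 10 germline marker genes, among them Ddx4, Dazl and Mael, summed to 12608 to 22206 CPM in F1 P4 and 9211 to 17315 in F1 P5. Their sum was 24.2 to 47.98 in F1 P6, and it fell as low as 1280 in F3 P4 and 142 in F3 P5. In F3 P6 it was 242 and 208 in DMSO libraries 3 and 4 and 14.4 to 24.2 in the other 7. Loci in Sertoli cell marker genes summed to 678 to 1022 CPM in P6 and to at most 90.6 in germline cells. Those in stromal marker genes were at 224 to 384 and at most 20.3. Leydig (25.2 to 317 in P6, at most 204 in germline cells), endothelial (29.7 to 144, at most 138) and macrophage marker loci (30.4 to 87.1, at most 82.8) overlapped.

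The 8 species divided by cell population. MURVY-int was high in germline cells, with medians of 1212 CPM in F1 P4, 950.0 in F1 P5, 2011 in F3 P4 and 1206 in F3 P5, and low in somatic cells, with medians of 46.2 in F1 P6 and 37.5 in F3 P6. RLTR4_MM-int was the reverse, at medians of 284, 308, 274 and 348 CPM in the 4 germline populations and of 3760 and 5192 in F1 and F3 P6. MuLV-int followed RLTR4_MM-int, at 115, 171, 103 and 198 against 1062 and 1199. In each of these the germline and somatic libraries did not overlap.

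**Figure D1:**
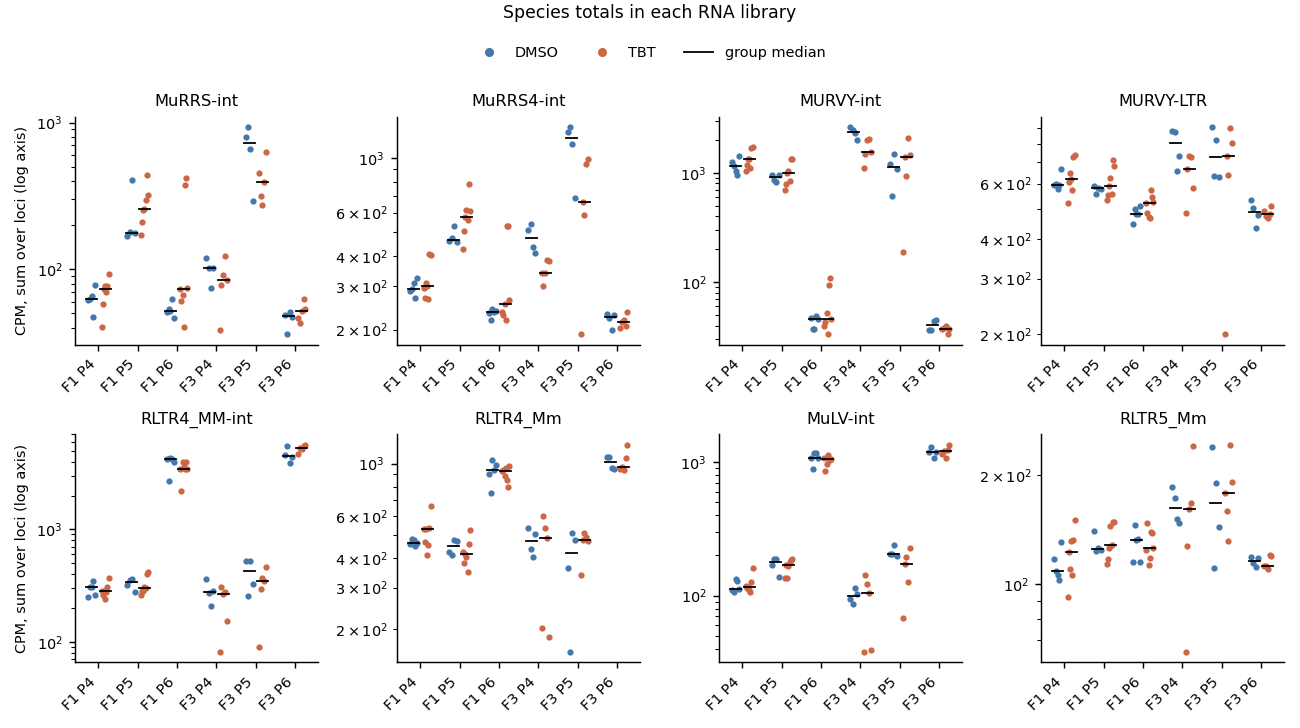
Sum over all loci of each of the 8 species, in CPM on a log axis, for every RNA library of the 6 populations, with DMSO in blue, TBT in orange and black lines at group medians. MURVY-int has medians of 950.0 to 2011 CPM in the germline populations and of 37.5 and 46.2 in P6, RLTR4_MM-int and MuLV-int are highest in P6, and MuRRS-int is higher in P5 than in P4.

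The remaining species differed less. RLTR4_Mm had medians of 472, 423, 484 and 474 CPM in germline cells and of 935 and 966 in P6. MURVY-LTR lay between medians of 481 and 732 in all 6 populations, and RLTR5_Mm, the LTR beside MURVY-int, between 114 and 179. Per kb of annotated sequence, which sets aside the size of each species, RLTR4_Mm had the highest median in 5 of the 6 populations (3.79 to 8.37 CPM per kb), and in F3 P6 RLTR4_MM-int stood at 9.04 and RLTR4_Mm at 8.64. By this measure the order in F1 P6 ran from RLTR4_Mm at 8.37 and RLTR4_MM-int at 6.55 through MuLV-int at 3.48 to MuRRS-int at 0.0478 and MURVY-int at 0.0241. In F1 P4 MURVY-int stood at 0.632 and MuRRS-int, the lowest, at 0.0527.

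Most of the germline signal came from loci inside genes. In F1 P4, introns held 79.0% of the summed signal of the 8 species, exons 13.3% and loci outside genes 7.71%, and in F1 P5 these shares were 63.0, 13.1 and 23.9%. In F1 P6 they were 36.5, 32.9 and 30.5%. The figures for F3 were 80.1, 9.26 and 10.6% in P4, 54.3, 11.02 and 34.7% in P5, and 35.9, 32.3 and 31.8% in P6. Loci of 1 gene repeated each other: of 101002 pairs of adjacent LTR loci in introns of 1 gene with at least 200 reads each, 13.5% had exactly equal read totals and 83.7% totals within 10% of each other. Of 1789 pairs outside genes under 2000 bases apart, 2.85% were equal and 17.999% within 10%. The value at an intronic locus can therefore be that of its gene, and a sum over such loci counts the gene more than once.

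MURVY-int in germline cells is the clearest case. A pair of its loci in an intron of Fkbp6, a co-chaperone needed for meiosis and for piRNA function in male germ cells, held most of the total. The locus at chr5:135298944-135299376 ranged from 417 to 766 CPM in F1 P4 (median 547), 280 to 554 in F1 P5 (374), 471 to 1237 in F3 P4 (945), 58.4 to 884 in F3 P5 (414), 0 to 3.41 in F1 P6 and 0.129 to 6.70 in F3 P6. It and its neighbour at 135299735-135300079 had mean levels of 573.708 and 573.704 CPM in F1 P4, and the LTR loci of other species in the same gene had means between 573.589 and 573.906, except an ORR1A4 locus at 522. Counted outside genes only, MURVY-int had medians of 28.1 CPM in F1 P4, 117 in F1 P5 and 2.35 in F1 P6, and of 50.7, 147 and 0.679 in the P4, P5 and P6 cells of F3.

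The leading loci of 3 other species also lay in genes, and their levels are given by population. The MURVY-LTR locus in Ndufaf2, an assembly factor of respiratory complex I, had medians of 69.9, 48.4 and 15.5 CPM in F1 P4, P5 and P6 and of 131, 73.9 and 11.7 in F3. The MuRRS4-int locus chr17:7960387-7960715 in an intron of Rsph3a, which encodes a radial spoke protein, lay at 23.1, 17.8 and 20.5 in F1 and at 23.3, 13.6 and 16.5 in F3. The RLTR5_Mm locus in an exon of a non-coding transcript of Phb2, a mitochondrial prohibitin, had medians of 35.6, 31.9, 47.7, 48.6, 29.4 and 44.6 in the same order.

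A few proviruses held most of the RLTR4 and MuLV-int signal in P6 cells. Chaining adjacent loci with RLTR4_Mm at both ends and an internal part of at least 4000 bases gave 75 proviruses, and the 7 with the highest P6 level held 74.9% of all RLTR4 and MuLV-int signal in F1 P6 and 71.7% in F3 P6. Their share was 72.0% in F1 P4, 59.0% in F1 P5, 61.4% in F3 P4 and 45.1% in F3 P5, at the lower totals of those cells. The provirus at chr4:133095957-133101623, outside genes, ranged from 684 to 1784 CPM in F1 P6 (median 1432) and from 1407 to 2056 in F3 P6 (1851), and reached at most 53.2 in any germline library. Reads counted at it made up 1.96 to 13.3% of all reads outside genes in F1 P6 and 9.79 to 15.7% in F3 P6, and at most 0.160% in germline cells. How reads that match both it and the chr8 provirus described next were counted is not given. This share may therefore hold reads of the chr8 provirus, and the shares of the 7 above may count such reads at both. The provirus at chr8:90886291-90891958, in Chd9, a chromatin remodeler gene, ranged from 715 to 1766 CPM in F1 P6 and from 1441 to 2043 in F3 P6.

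These 2 proviruses cannot be told apart by their internal reads. Their internal parts of 4693 and 4694 bases are 100% identical over the 4693 aligned bases, and their junctions above are the same 40 bases. In each of the 21 P6 libraries the ratio of the chr8 to the chr4 provirus lay between 0.959 and 1.05 (median 0.994). The outermost LTR pieces went opposite ways at the 2 ends. The leading piece of the chr4 provirus (133095957-133096175) had means of 5.28 CPM in F1 P6 and 7.38 in F3 P6, and that of the chr8 provirus (90886291-90886509) 0.602 and 1.19. The trailing piece of the chr4 provirus (133101399-133101623) had means of 0.941 and 1.30, and that of the chr8 provirus (90891734-90891958) 3.04 and 4.60. The internal reads were not divided between the 2.

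The other 5 proviruses showed a wider range. The MuLV-int provirus at chr5:23700579-23709245, in the long non-coding RNA gene AI506816, which has the proline site, lay at 587 to 768 CPM in F1 P6 and at 564 to 704 in F3 P6, and at no more than 77.3 in germline cells. The proviruses at chr14:54292373-54297916 and chr4:147218828-147227549 had medians of 183 and 158 in F1 P6 and of 309 and 202 in F3 P6, with germline medians of at most 8.01. The provirus in Cep85, a centrosomal protein gene, at chr4:134159391-134164702 was instead highest in F1 P4, at 316 to 865 CPM (median 475), and lay at 138 to 273 in F1 P6. In F1 P4 its 7 pieces had medians between 67.2 and 68.7 CPM, as intronic loci that follow 1 gene do, and in F1 P6 between 8.77 and 61.5. The provirus in Snx6, a retromer-associated sorting nexin, at chr12:54774224-54783205 differed least, with medians of 134, 94.5 and 188 in F1 P4, P5 and P6. Among the 7, the internal parts were 89.8 to 100% identical.

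**Figure D2:**
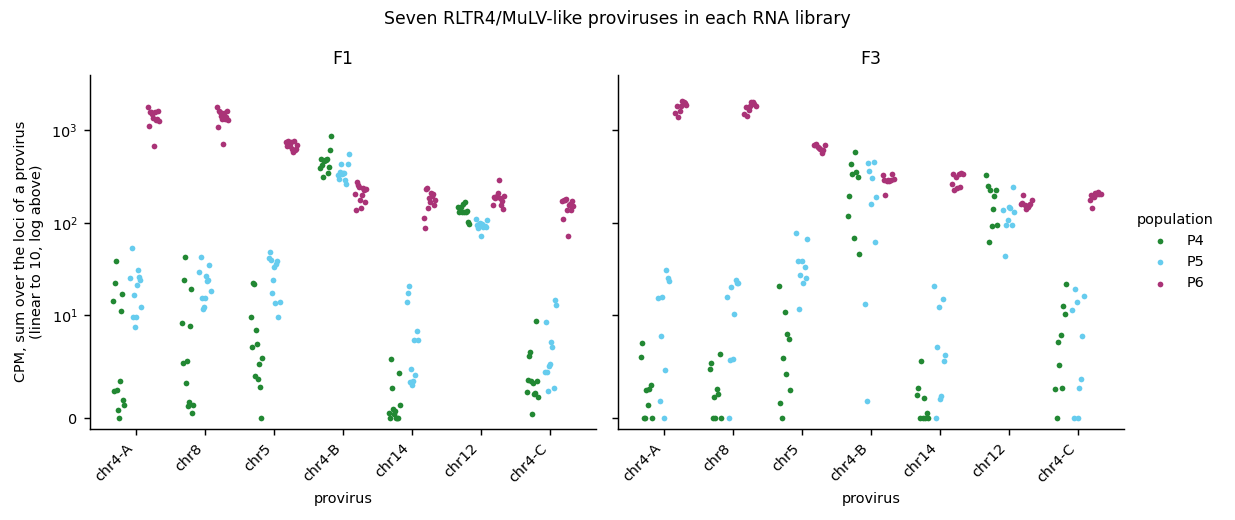
Summed CPM of the 7 RLTR4/MuLV-like proviruses in each RNA library of F1 and F3, colored by population, on an axis that is linear to 10 and logarithmic above. In 5 of them the P6 libraries lie far above P4 and P5, while chr4-B (Cep85) is highest in P4 of F1 and chr12 (Snx6) is near the same level in all 3 populations.

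P5 cells differed from P4 cells most in MuRRS-int. Its total rose from 40.8 to 93.2 CPM in the 12 F1 P4 libraries to 167 to 436 in the 11 F1 P5 libraries, and from 38.6 to 123 in the 9 F3 P4 libraries to 276 to 928 in the 9 F3 P5 libraries. No P5 library overlapped a P4 library in either generation. The log2 fold change of P5 over P4 was 1.90 (SE 0.16) in F1 and 2.48 (SE 0.29) in F3, with FDRs of 3.44e-10 and 1.40e-05 in limma over all species totals. In F1 the totals of MuRRS4-int (0.79, SE 0.083), MuLV-int (0.48, SE 0.075) and RLTR5_Mm (0.16, SE 0.069) also rose, and those of MURVY-int (−0.40, SE 0.10) and RLTR4_Mm (−0.19, SE 0.068) fell. RLTR4_MM-int (0.16) and MURVY-LTR (−0.07) did not pass the FDR of 0.05. With the number shared by a P4 and a P5 library as a replicate block both passed, at 0.18 (FDR 9.56e-04 in limma) and −0.07 (FDR 0.0321), beside 26.2% of all species totals that rose and 47.3% that fell under that block. Over all 664 species totals tested in F1, 24.1% rose and 43.4% fell. With a common total per library these shares were 48.2% and 18.7%, and the median over all species totals moved from −0.07 to 0.09. On that scale MURVY-LTR rose by 0.09 and RLTR4_Mm stood at −0.04 and did not pass, while MURVY-int still fell by 0.25 and MuRRS-int rose by 2.06. In F3 only MuRRS-int of the 8 passed, beside 2.87% of all 662 species totals that rose and 0.151% that fell, and without the 5 F3 libraries that stood apart 4 of the 8 passed, beside 10.1% of all that rose and 10.1% that fell, and MuRRS-int stood at 2.07. With the replicate block 4 passed in F3: MuRRS-int (2.48), MuLV-int (0.99), MuRRS4-int (0.95) and MURVY-int (−0.94), beside 4.68% of all that rose and 1.36% that fell.

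The rest of the LTR loci outside genes rose in P5 as well. Summed over loci outside genes, all 8 species rose in F1, from 0.99 in MURVY-LTR to 2.70 in MuRRS-int, as did 93.9% of all 589 species totals of this kind, of which 0.17% fell. In F3 7 of the 8 rose, all but RLTR5_Mm at 1.01, beside 59.5% of 603, with 0.166% lower. RLTR5_Mm passed with the replicate block (FDR 0.0364 in limma; all species 68.8% higher) and, at 1.55, without the 5 libraries (69.0% higher). Over all F3 libraries MuRRS-int stood at 3.12 and RLTR4_MM-int at 3.19. MURVY-int thus fell in F1 as a total, in which the Fkbp6 loci led, and rose by 1.87 outside genes.

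As a share of all signal outside genes, MuRRS-int still rose. In F1 6 of the 8 species took a larger share in P5: MuRRS-int by 1.505 (SE 0.23), RLTR4_Mm by 0.85, MuLV-int by 0.79, MURVY-int by 0.67, RLTR4_MM-int by 0.60 and MuRRS4-int by 0.45. MURVY-LTR (−0.21) and RLTR5_Mm (0.01) did not pass. The background was 31.8% of 598 species totals higher and 17.9% lower. In F3 4 passed: RLTR4_MM-int (1.97), MuRRS-int (1.93), MuLV-int (1.41) and MuRRS4-int (0.55), beside 15.3% of 580 higher and 10% lower. The same 4 passed without the 5 libraries, at 1.55, 1.60, 1.24 and 0.65, beside 14.4% higher and 11.3% lower. The related ERV1 species MMVL30-int (0.87), RLTR6-int (0.93), RLTR1B-int (0.90) and MMERGLN-int (0.63) also rose as totals in F1, and all but RLTR6-int (0.88) passed in F3. The share of reads outside genes rose with them, from a highest of 2.51% in F1 P4 to a lowest of 3.84% in F1 P5, and its part in these differences was not tested beyond the share above. Marker loci also differed by median between F1 P4 and P5. Those of germline genes fell from 16290 to 10252 CPM and of stromal genes from 11.6 to 8.31. Those of Sertoli (20.8 to 36.3), Leydig (12.6 to 23.5), endothelial (63.0 to 78.0) and macrophage genes (17.4 to 29.5) rose. In F3 the directions were the same but for Leydig genes (6.14 to 5.42). The part of these markers was not tested. In bulk libraries, fewer cells of a type and less RNA per cell cannot be told apart.

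**Figure D3:**
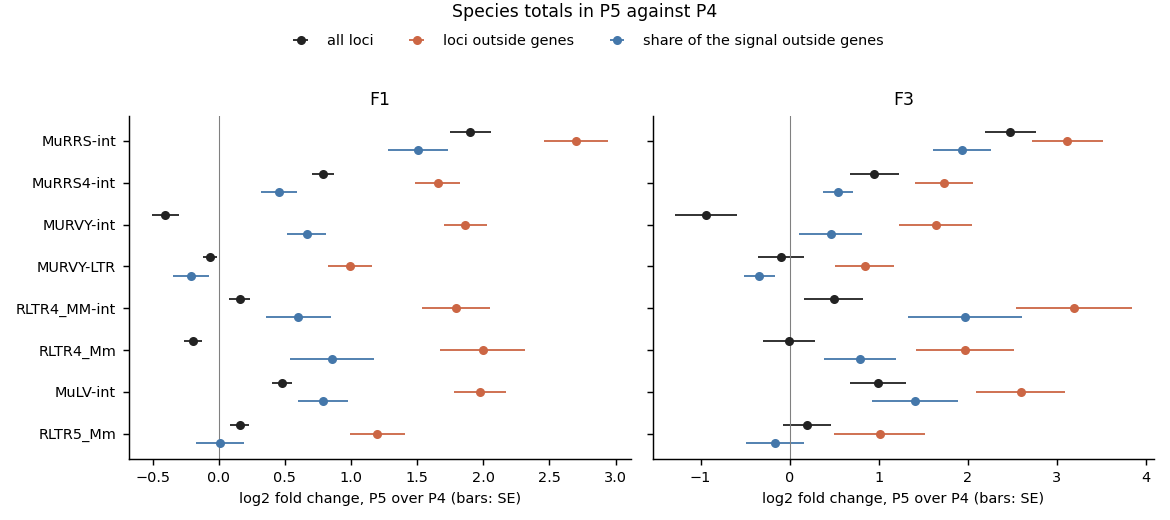
Log2 fold change of species totals, P5 over P4, with bars of 1 standard error, for F1 and F3, over all loci (black), loci outside genes (orange) and as a share of the signal outside genes (blue). MuRRS-int lies farthest to the right over all loci in both generations, at 1.90 and 2.48, and MURVY-int changes side between all loci and loci outside genes.

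Single loci of MuRRS-int rest on the same reads as its total. A locus was kept by its mean over P4 and P5 together, so one near 0 in P4 could enter through P5 alone. The background of all loci was kept in the same way. In F1, 152 of the 309 loci tested differed between P5 and P4, of which 106 were higher and 46 lower, beside 17.6% and 21.6% of all 101401 loci tested. With a common total per library 114 were higher and 23 lower, beside 21.0% and 11.5% of all loci. MuRRS-int had 21 of 34 loci higher and 0 lower, MuRRS4-int 31 of 74 higher and 4 lower, MURVY-int 13 of 21 higher and 3 lower, and RLTR4_Mm 6 of 33 higher and 12 lower. Outside genes 48 of 77 rose and 1 fell, where 42.5% of all 4565 loci outside genes rose and 3.18% fell. In F3, 19 of 391 were higher and 0 lower, beside 1% and 0.0112% of 98076, and 11 of the 19 were MuRRS-int. Without the 5 libraries that stood apart the count was 54 of 361, 19 of them MuRRS-int, where 4.90% of all loci were called instead of 1.01%. With the replicate block it was 30, 12 of them MuRRS-int (28 higher and 2 lower, beside 1.84% and 0.0877% of all loci). Of the loci called, 14 were shared, which is 9.21% of the F1 and 73.7% of the F3 calls, beside 1.26% of 39815 and 50.3% of 994 for the loci of all species. Without the 5 libraries 42 were shared, 27.6% of the F1 and 77.8% of the F3 calls, beside 9.12% and 74.8% for all species.

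The MuRRS-int locus with the highest mean, at chr5:104932577-104934095, had its highest medians in P5 of both generations, though the P4 and P5 ranges overlapped. It had 0 to 4.50 CPM in F1 P4 (median 1.42), 3.75 to 19.6 in F1 P5 (11.7), 0 to 9.29 in F3 P4 (2.49) and 3.83 to 83.7 in F3 P5 (40.0), and was at 0 in most P6 libraries, with a highest of 1.36. The MuRRS-int locus at chr10:83387140-83391831, which overlaps an exon of D10Wsu102e, had 0 to 4.16 CPM in F1 P4 (median 0) and 2.83 to 28.6 in F1 P5 (10.002), and 0 to 13.5 and 4.81 to 70.3 in F3. Its log2 fold changes, on the log2(CPM + 1 read) scale, were 4.28 (SE 0.45) in F1 and 4.94 in F3. The MuRRS-int locus in an intron of Sec24b, a COPII coat gene, instead had medians of 6.29, 6.52 and 5.74 CPM in F1 P4, P5 and P6.

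Other loci named by the same rule went both ways. The MuLV-int locus chr16:12531314-12536892, outside genes, had 0 to 4.69 CPM in F1 P4 and 0.723 to 14.3 in F1 P5 (log2 fold change 4.21). The MuRRS-int locus chr1:13511320-13514997, outside genes, was at 0 in all F3 P4 libraries and reached 72.9 CPM in F3 P5 (median 4.81). In an intron of Lonp2, a peroxisomal protease gene, the MURVY-int locus chr8:86648777-86648820 fell from a median of 37.8 to 23.1 CPM in F1 and the MURVY-LTR locus chr8:86657850-86658372 from 38.9 to 25.4, changes of −0.65 and −0.59.

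**Figure D4:**
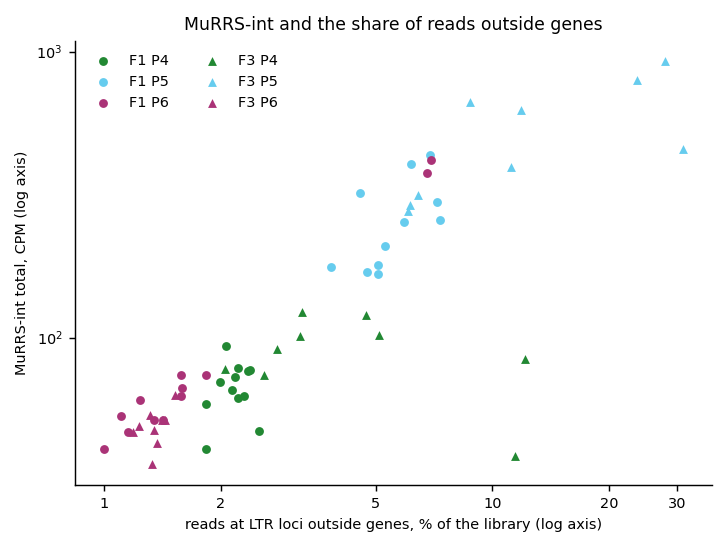
MuRRS-int total in CPM against the share of a library's reads at LTR loci outside genes, both on log axes, for all 62 RNA libraries, colored by population, with circles for F1 and triangles for F3. P5 libraries lie at the upper right, and 2 F1 P6 libraries, TBT 7 and 8, lie beside them at 378 and 418 CPM.

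TBT in F0 was compared with DMSO within each population. None of the 8 species totals passed an FDR of 0.05 in limma in any of the 6 populations, nor in edgeR's likelihood ratio or quasi-likelihood test on the recovered reads. At an unadjusted p under 0.05 limma gave 1 species in F3 P4 (MURVY-int) and 1 in F3 P6 (RLTR4_MM-int), and 0 in the other 4 populations. Over all species totals 3.02% in F3 P4 and 9.37% in F3 P6 had such a p, and 0 to 7.68% in the other 4. At the FDR of 0.05 the background over the 660 to 668 species totals tested was 0% in each population in limma and 0 to 0.152% in the edgeR tests.

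MuRRS-int is given in full because it differed most between P5 and P4. In F1 P4 the DMSO libraries had 47.3, 61.4, 62.7, 65.6 and 78.0 CPM and the TBT libraries 40.8 to 93.2 (median 72.9), a log2 fold change of 0.13 (SE 0.17). In F1 P5 the DMSO libraries had 167, 176, 179.95 and 405 and the TBT libraries 170.04 to 436 (median 257), 0.31 (SE 0.26), and 0.61 without DMSO library 44-1, which held the 405. In F3 P6 the DMSO libraries had 36.0, 47.5, 49.0 and 51.4 and the TBT libraries 42.8, 46.9, 51.7, 53.8 and 62.9, 0.17 (SE 0.12), and 0.28 without DMSO libraries 3 and 4 (FDR 0.835 in limma). In all 3 the groups overlapped.

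In the other 3 populations the change was smaller in size without the libraries that stood apart. In F1 P6 the DMSO libraries had 46.8, 51.4, 51.6, 53.2 and 62.7 CPM and the TBT libraries 40.6, 60.5, 66.8, 73.9, 74.1, 378 and 418, a log2 fold change of 0.99 (SE 0.53, FDR 0.742 in limma), and of 0.22 without TBT libraries 7 and 8. Those 2 libraries also had MURVY-int at 94.98 and 109 CPM, where the other 10 had 33.3 to 52.4, and MuRRS-int on the Y chromosome at 133 and 150.0, where the others had 0 to 14.7. Their germline marker loci summed to 47.98 and 41.1 CPM, where the others had 24.2 to 43.2, and those in the germline marker gene Morc1 to 17.4 and 13.9, where the others had 0 to 5.40, while their share of reads outside genes was 6.79 and 6.95%. The part of that share and of Morc1 in the MuRRS-int value was not tested.

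In F3 P4 the DMSO libraries had 74.0, 102, 102 and 120.1 CPM of MuRRS-int and the TBT libraries 38.6, 78.0, 84.3, 91.3 and 123, a log2 fold change of −0.33 (SE 0.37), and of −0.04 without TBT libraries 5 and 9. In F3 P5 the DMSO libraries had 291, 664, 793 and 928 and the TBT libraries 276, 316, 394, 455 and 625.2, −0.63 (SE 0.47), and −0.20 without DMSO libraries 1 and 2 and TBT library 5. The groups overlapped in both. The median TBT change over all species totals was −0.41 in F3 P4 and −0.18 in F3 P5. With a common total per library the MuRRS-int change in F3 P4 was 0.074, on the other side of 0.

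Both species at an unadjusted p under 0.05 are given by library. MURVY-int in F3 P4 had 1983, 2317, 2436 and 2603 CPM in DMSO and 1093, 1496, 1548, 2011 and 2048 in TBT, a log2 fold change of −0.54 (SE 0.23, FDR 0.508 in limma), and of −0.34 without TBT libraries 5 and 9. The DMSO and TBT libraries overlapped in 1 of 4 and 2 of 5 libraries. Summed outside genes alone its change was 0.98 by value (SE 0.60, FDR 0.996), and 0.51 (SE 0.60, FDR 0.805 in limma) without TBT libraries 5 and 9, which had 11.4 and 12.1% of reads outside genes. RLTR4_MM-int in F3 P6 had 3909, 4444, 4630 and 5501 CPM in DMSO and 4691, 5192, 5350, 5480.3 and 5664 in TBT, 0.20 (SE 0.074, FDR 0.425 in limma), and the groups overlapped. Without DMSO libraries 3 and 4 the change was 0.06 (FDR 0.854 in limma), with only DMSO libraries 1 and 2 left against the 5 TBT libraries. The chr4 provirus outside genes lay at 1407 to 1845 CPM in the 4 DMSO and at 1851 to 2056 in the 5 TBT libraries of F3 P6, with no overlap. Its internal piece at 133099014-133100849 changed by 0.31 (FDR 0.176) and did not pass, against 0.0343% of 104835 loci called in that population. Without DMSO libraries 3 and 4 it was 0.23 (FDR 0.547 in limma). Loci in Leydig cell marker genes, of which 2 (Cyp11a1 and Cyp17a1) hold an LTR locus, summed to 36.5 to 62.8 CPM in DMSO and 25.2 to 36.6 in TBT, and their part and that of the germline markers above were not tested. In F1 P6 the 3 loci with the largest differences were pieces of the chr4 and chr8 proviruses and lay lower in TBT: chr4:133096444-133099025 had 467 to 833 CPM in DMSO and 249 to 714 in TBT, chr4:133099014-133100849 437 to 669 and 273 to 651, and chr8:90886778-90889360 394 to 745 and 231 to 682. These overlapped widely. Leydig marker loci went the other way by median, at 39.6 to 131 CPM in DMSO (median 54.1) and 47.5 to 317 in TBT (87.9). The 2 libraries lowest in RLTR4_MM-int, DMSO 12 and TBT 11, had the highest Leydig sum of each group. The part of the Leydig markers was not tested.

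Of single loci, 1 passed the FDR of 0.05 for TBT in limma. In F1 P5 it called 1 of 473 loci tested, where 0.0106% of 122303 loci of all species were called. In the other populations it called 0: of 224 in F1 P4 (all species 0% of 91621), of 266 in F1 P6 (0.00341% of 88037), of 256 in P4 of F3 (0% of 86412), of 482 in P5 (0% of 105423) and of 347 in P6 (0.0343% of 104835).

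At an unadjusted p under 0.05 limma gave 61 of the 473 loci in F1 P5, where 6.89% of all loci had one. The counts were 17 in F1 P4 (all loci 7.09%) and 8 in F1 P6 (3.68%), and for F3 they were 5 in P4 (1.65%), 18 in P5 (1.01%) and 41 in P6 (7.96%). The likelihood ratio test of edgeR called 10 loci of the set in F1 P5 (all loci 0.32%), 30 in F3 P5 (3.13%; 8 and 0.734% without the 3 libraries that stood apart there), 3 in F3 P6 (0.32%) and 2 in F1 P6 (0.05%), and 0 in F1 P4 (0.0982%) and F3 P4 (0.00463%). The quasi-likelihood test called 1 in F3 P6 (all loci 0.0582%) and 0 in F1 P5 (0.00327%), F1 P6 (0.00341%) and the remaining 3 (0%).

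Loci outside genes in F1 P5 lay higher in TBT by value. MURVY-int had 16 of 18 such loci higher in value with a median of 1.02 on the log2 scale, MuRRS4-int 54 of 66 with 0.90 and MuRRS-int 34 of 44 with 0.52, and 8, 20 and 4 of them had an unadjusted p under 0.05. Over all 10043 loci outside genes, 66.8% were higher in value, the median was 0.37 and 18.3% had an unadjusted p under 0.05. The share of reads outside genes had medians of 5.07% in DMSO and 5.91% in TBT, and its part was not tested.

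The locus called was MURVY-int at chr11:54035346-54040035, 4690 bases long, whose first 120 bases are printed above. It lies outside genes, 7256 bases from Slc22a4, an organic cation transporter gene, and 14893 bases from Pdlim4, which encodes a PDZ and LIM domain protein. It belongs to an element with further MURVY-int pieces at 54034307-54034999 and 54040034-54040996 between LTRIS4B copies at 54033899-54034304 and 54040998-54041373, a flank found at 14 of 542 LTR ends of MURVY-int. In F1 P5 the DMSO libraries 43-4, 43-5, 44-1 and 48-4 had 4.30, 2.33, 1.03 and 2.02 CPM (6 to 18 reads), and the TBT libraries 45-3 to 47-5 had 5.40, 8.01, 12.7, 8.66, 8.55, 9.88 and 6.30 (29 to 70 reads). The lowest TBT library exceeded the highest DMSO library. TBT libraries were higher by 1.84 on the log2 scale (SE 0.30, FDR 0.0403 in limma). With the first number of the labels as a random effect the difference was 1.85 (SE 0.31) and the FDR 0.0508, outside the threshold. Without DMSO 43-5 or 44-1 no locus of the set was called, where 0.027% and 0.0163% of all loci were. The same held without TBT 45-4, 45-5, 47-1, 47-3 or 47-4, where 0.00329 to 0.00573% were.

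In F1 P4 the same locus went the other way by value. It lay under the filter there, so its TBT difference in F1 P4 alone was not tested. It entered the fit of P4 and P5 together by its mean over both. The DMSO libraries had 1.03, 3.20, 1.62, 3.45 and 2.29 CPM (4 to 14 reads), while 5 of the 7 TBT libraries were at 0 and the other two reached at most 0.685 (4 reads). Again no library overlapped. The difference between the TBT effects in P5 and P4 was 4.67 on the log2 scale (SE 0.60, FDR 4.13e-04 in limma), and this was the 1 locus called of all 101401 (0.000986%). Of the 309 loci of the set tested, 20 had an unadjusted p under 0.05, beside 4.32% of all loci. The neighbouring MURVY-int piece had 33 reads over the DMSO and 7 over the TBT libraries of F1 P4, and 13 and 97 in F1 P5, the same direction by value in both. The piece on the other side had 0 and 0 reads, and 0 and 5. The LTRIS4B copy at 54040998-54041373 had 4 and 9 in F1 P4, the other direction, and 7 and 20 in F1 P5, and the copy at 54033899-54034304 had 0 and 1, and 5 and 5. The locus was at 0 in all 12 F1 P6 libraries.

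F3 did not show this difference. In F3 P5 the DMSO libraries ranged from 2.57 to 12.5 CPM and the TBT libraries from 0 to 10.4, and in F3 P4 all 9 lay at or under 3.05. The difference of effects was −1.77 (SE 1.69, FDR 0.997 in limma), −2.55 without the 5 libraries that stood apart (FDR 0.478) and −0.82 without P5 TBT library 5, and 0 of the 391 loci tested passed in limma or in either edgeR test. The background of 98076 loci was 0% in limma and in the quasi-likelihood test and 0.0143% in the likelihood ratio test. At an unadjusted p under 0.05 limma gave 13 of the 391, beside 1.39% of all loci. Among species totals the difference of effects passed for 0% of 664 in F1 and 0% of 662 in F3, with 2.41% and 0.302% at an unadjusted p under 0.05. The labels of F1 germline libraries begin with 43, 44 or 48 in DMSO and with 45 or 47 in TBT, without saying what these numbers mark, so what they share cannot be told apart from TBT. With that number as a random effect the difference of effects stood at 4.68.

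**Figure D5:**
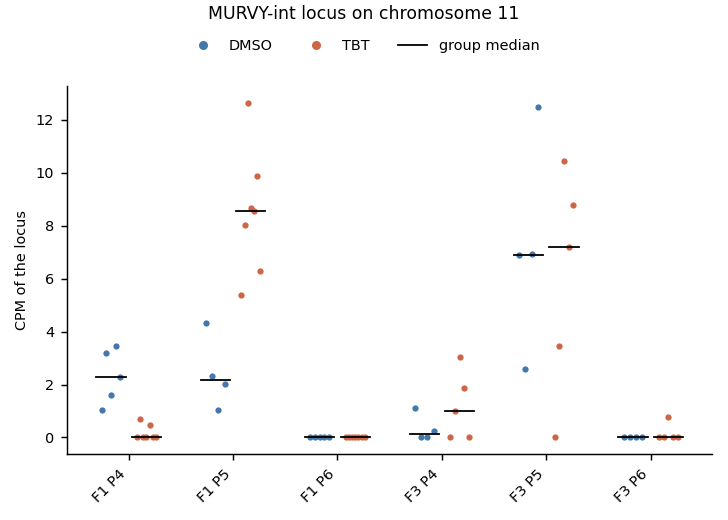
CPM of the MURVY-int locus on chromosome 11 in each RNA library of the 6 populations, DMSO in blue and TBT in orange, with group medians as black lines. In F1 P5 the 7 TBT libraries lie at 5.40 to 12.7, above the 4 DMSO libraries, in F1 P4 the order is turned, and in F3 P5 the groups overlap.

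Methylated DNA in P6 cells was read in windows of 100 bases, of which 167 in F1 and 175 in F3 overlapped 132 and 144 loci of the set. None lay on the Y chromosome. Libraries held 701493 to 1913353 counts in F1 and 1105120 to 1556376 in F3. Windows over MURVY-int averaged 23.7 counts in F1 (8 windows) and 25.5 in F3 (8), and those over MuRRS-int 16.3 (32) and 18.7 (30). RLTR4_MM-int, with the densest CpG sites of the internal parts, averaged 6.42 (30) and 6.71 (39), where all windows averaged 7.90 and 7.63. So few windows do not rank the species by methylation. None of the 51 windows tested in F1 or the 79 in F3 passed the FDR of 0.05 in edgeR's quasi-likelihood or likelihood ratio test, the latter calling 0.0347% of all F1 windows. At an unadjusted p under 0.05 there were 0 in F1, where 5.05% of all windows had one, and 7 in F3, 6 higher and 1 lower in TBT, where 5.16% did. Over all windows 0.00579% of 34559 were called higher and 0.026% lower in F1, and 0% of 47563 in either direction in F3.

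The 2 higher and the 2 lower windows of smallest p are given for each generation. In F3 the MuRRS-int window chr13:64831601-64831700 had 9.30, 11.6, 11.9, 12.7 and 14.4 CPM in DMSO and 14.3 to 23.7 in TBT, 1 of 7 TBT libraries lying below the highest DMSO library (log2 fold change 0.62, FDR 0.913 in edgeR). The RLTR4_Mm window chrX:15482901-15483000 had 14.4, 16.0, 21.6, 22.6 and 24.5 in DMSO and 18.6 to 37.6 in TBT (0.49). The MURVY-LTR window chr11:68913501-68913600 had 14.5, 16.1, 16.1, 18.6 and 20.8 in DMSO and 9.64 to 19.7 in TBT (−0.40), and the MuRRS-int window chr3:14672001-14672100 11.9 to 14.5 and 7.20 to 17.04 (−0.35). All 4 had overlapping groups. The element of the called chr11 locus held another of the 7 windows, named after its values were seen: MURVY-int chr11:54034401-54034500 at 30.5 to 44.8 CPM in DMSO and 37.3 to 61.3 in TBT (0.33, FDR 0.938 in edgeR), with overlap. In F1 the MURVY-int window chr7:125321601-125321700 had 7.13, 8.64 and 11.7 CPM in DMSO and 13.997, 14.1, 14.7 and 14.7 in TBT (0.60, FDR 0.976), on 5 to 27 counts. The MuRRS-int window chr1:6173501-6173600 had 18.1, 19.96 and 25.9 in DMSO and 20.6 to 34.0 in TBT (0.41). Lower in F1 TBT by value were the MuRRS4-int window chr7:5739601-5739700 (−0.29) and the MuRRS-int window chr12:88195201-88195300 (−0.26).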

How the data were processed

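The values of all 62 RNA and 19 MBD libraries were taken as the authors deposited them. RNA values are a normalized signal in CPM per RepeatMasker LTR locus on GRCm38, which the authors made with STAR, a modified ERVmap and TMM scaling in edgeR. MBD values are raw counts that the authors deposited for part of the 100 bp windows of the genome. Trim Galore is named in the submitters' processing notes, without versions.

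Whole reads were recovered from the CPM values by dividing by the value of 1 read (tolerance 0.01 reads). Values were tested as log2(CPM + 1 read) with limma 3.58.1 in R 4.3.3 with a trended variance, over all loci, or over all species totals, with a mean of at least 5 reads, at a Benjamini-Hochberg FDR of 0.05. A fold change on this scale understates that of low loci. The median value of 1 read in a population, used for both the pseudocount and the filter, was 0.181 to 0.294 CPM. For MBD counts, the quasi-likelihood F test (edgeR 4.0.16) was run at windows kept by filterByExpr. P5 and P4 were compared over all libraries of a generation with TBT as a term. The difference of TBT effects used the interaction term. P4, P5 and P6 were sorted from 1 suspension, so P4 and P5 libraries of the same number were taken as 1 sample in a replicate block, though the labels do not say so outright. Their deviations from the group means correlated at -0.19 to 0.50 in F1 and at -0.33 to 0.60 in F3. Each library was 1 replicate. The limma fits over loci for TBT and for P5 over P4, and the quasi-likelihood fit used for MBD windows, were run on simulated counts. The interaction, replicate block, random effect and likelihood ratio fits were not.

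Members and lists were chosen with earlier results of these data known. Fold changes of species totals are given for MuRRS-int and for species with an unadjusted p under 0.05, and loci are named by highest mean CPM, by the test, and in F1 P6 by largest difference. Proviruses (gaps of at most 50 bases), the interaction over loci, loci outside genes, the glutamine variant and fits without the libraries that stood apart were chosen after seeing the data. Other alternatives were both edgeR tests on recovered reads, DESeq2 1.42.0 for MBD, pseudocounts of 0.25 and 4 reads, other filters, a common total, replicate blocks and each library left out in turn. Starts in the tables count from 0 and are printed from 1. Genes came from GENCODE M21, sequences from RefSeq by Biopython 1.88. Python 3.11.15 with pandas 2.3.3 and numpy 2.4.6, and the R package data.table in version 1.17.8, handled the tables. Fold changes and p-values of the authors were not used.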

Additional observations from a re-analysis of the deposited data

Results flagged for a closer look

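Of 130 groups of 4 to 10 libraries examined, 13 held a library whose gap to the others exceeded Dixon's 95% limit, which chance gives in about 1 group of 20. Species totals gave 8. MURVY-LTR stood at 666 CPM in F1 P4 DMSO library 48-4, against 577 to 599 in the others. MuLV-int stood at 162 in F1 P4 TBT library 47-5 (others 107 to 126) and at 240 (239.552) in F3 P5 DMSO library 3 (198 to 204). MuRRS-int stood at 405 in F1 P5 DMSO library 44-1, where the other 3 had 167 to 180 (179.952), and without it the TBT change of MuRRS-int in F1 P5 was 0.61 on the log2 scale instead of 0.31. RLTR4_MM-int was low in F1 P6 in both groups, at 2688 in DMSO library 12 (3941 to 4327) and at 2185 in TBT library 11 (3440 to 4006). RLTR4_Mm stood at 338 in F3 P5 TBT library 5 (471 to 512), one of the libraries of low depth, and RLTR5_Mm at 139.9 in F1 P5 DMSO library 43-4 (123 to 126).

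Single MuRRS-int loci gave the other 5. The locus on chromosome 10 stood at 3.20 CPM in F1 P4 DMSO library 43-5 (others 0 to 0.924), at 4.16 in F1 P4 TBT library 47-4 (0 to 0.475), at 1.96 in F3 P4 DMSO library 2 (0 to 0.246) and at 13.5 in F3 P4 TBT library 5 (0 to 2.33). The Sec24b locus on chromosome 3 stood at 12.9 in F3 P6 TBT library 9 (9.10 to 10.02).

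The TBT effect on the MURVY-int locus of chromosome 11 differed between F1 P5 and F1 P4 by 4.67 on the log2 scale in the interaction term of limma, with the DMSO and TBT libraries apart in opposite directions in the 2 populations. In F1 P4 alone the locus lay under the filter and was not tested.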

How the results depend on the processing

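None of the 8 species totals passed for TBT under any alternative run in any population. The counts of loci called for TBT did move. In F1 P5, 1 locus became 10 with the likelihood ratio test (0.32% of all loci called), 25 without a filter (0.202%), 2 with a common total per library (0.0111%), and 0 with the quasi-likelihood test, a pseudocount of 0.25 or a mean of at least 20 reads. Leaving out 1 library gave 0 to 4: 3 without DMSO 43-4 (0.0268%), 4 without DMSO 48-4 (0.0763%), and 0 without DMSO 43-5 (0.027%) or 44-1 (0.0163%) or TBT 45-4, 45-5, 47-1, 47-3 or 47-4 (0.00329 to 0.00573%). The likelihood ratio test called 2 in F1 P6, 30 in F3 P5 (9 higher, 21 lower) and 3 in F3 P6, where the quasi-likelihood test called 1 and leaving out 1 library gave 0 to 4 (4 without DMSO 2, where 0.138% of all loci were called, and 1 without TBT 8, 0.0162%). The MuRRS-int change in F3 P4 turned to 0.074 with a common total, and that of MURVY-int to 0.98 over loci outside genes and to 1.03 with a common total outside genes.

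For P5 against P4 in F1, 152 loci (39.3% of all loci called) became 46 in DMSO libraries only (12.3%) and 309 of 3878 without a filter (8.61%), with 136 to 153 when 1 library was left out, and 5 to 7 species passed. In F3, 19 loci (1.01%) became 3 in DMSO only (0.145%), 11 without a filter (0.0822%) and 54 without the 5 libraries that stood apart (4.90%), with 10 to 43 when 1 was left out (43 without P5 TBT 5, where 3.06% of all loci were called, 10 without P5 TBT 9, and 12, 12 and 11 without P4 DMSO 1, 2 and 3, where 0.40 to 0.53% of all loci were called). The 1 species of F3 (3.02% of all species totals called) became 4 in DMSO only (9.5%), 5 with a common total (19.0%), 7 outside genes (59.7%), 4 as a share (25.3%), and 4 without the 5 libraries (20.2%), with 1 to 3 when 1 was left out (3 without P5 TBT 5, 7.54%). With the shared number of P4 and P5 libraries as a replicate block the F3 counts were 30 loci and 4 species (1.93% of all loci and 6.04% of all species totals), and the F1 counts 168 and 8 (44.8% and 73.5%).

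The interaction of the MURVY-int locus ran from 3.10 to 6.17 over pseudocounts, scalings, blocks and edgeR tests and from 4.36 to 4.98 with 1 library left out. The count of loci called in the interaction, 1, became 2 with the likelihood ratio test (0.0592% of all loci) and 0 at a mean of at least 20 reads, where the locus was not tested. The causes of these changes were not tested. The lowest library, in F3 P5, held 246520 reads.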
